A study of Mus musculus with 4 samples.

Results

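The transcripts described are those of 43 genes that write, read or erase repressive and activating chromatin states: subunits of Polycomb repressive complexes 1 and 2 (PRC1 and PRC2), the KMT2 histone methyltransferases with the demethylase Kdm6b, the DNA methylation machinery, and histone deacetylases of classes I and IIa. They were chosen by symbol, and all 43 were matched to an Ensembl gene among the 45706 genes of the count table. Each was measured by RNA-seq in 4 replicate libraries of basal radial glia, neural progenitors without contact to the ventricle, isolated from the medial neocortex of E18.5 mouse embryos. All 4 libraries carried the strain label C57BL/6JOlaHsd and the genotype label Tubb-GFP/+, their titles name the dye DiI, and they form 1 group, so no condition could be compared. Whether each library had its own embryo or a pool of embryos is not stated in the labels, so every p-value here reflects no more than how these libraries vary, and that variation may be technical.

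Polycomb complexes keep developmental genes silent. PRC2 methylates histone H3 at a lysine that marks silenced genes, and PRC1 ubiquitinates histone H2A and compacts chromatin. Several trithorax-type KMT2 enzymes methylate a different lysine of histone H3 and oppose that silencing. DNA methyltransferases and TET enzymes add and oxidise the methyl group of cytosine in CpG dinucleotides, MBD proteins take their name from a methyl-CpG-binding domain, and deacetylases remove histone acetylation as parts of corepressor complexes. In the embryonic cortex these systems are known for timing the passage of radial glia from neurogenesis to gliogenesis.

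Library totals lay between 26540656 and 34837657 counts. Levels are TPM, a read count divided by the merged exon length of a gene and scaled to a fixed library sum, so that genes can be compared per length. Radial glial markers were present (10 of 10 above 1 TPM, median 56.0 TPM), with Fabp7 highest among them at 4631 ± 382 TPM (SD, n = 4) and Hopx, the gene in the title of the series, lowest at 3.03 ± 0.414 TPM. The 6 intermediate progenitor markers were all above 1 TPM too (median 174 TPM, Gadd45g highest at 511 ± 64.1 TPM). The 8 neuronal markers were as well (median 270 TPM, Tubb3 highest at 6691 ± 496 TPM). So were the 8 proliferation markers (Rrm2 highest at 233 ± 23.6 TPM), the 6 erythroid markers (Hbb-bs highest at 1183 ± 357 TPM) and the 5 markers of the oligodendrocyte lineage (median 7.09 TPM, Olig1 highest at 16.4 ± 1.62 TPM). Fewer passed for microglia (5 of 7, C1qb highest at 13.3 ± 4.29 TPM), meninges (2 of 5, Crabp2 highest at 2.79 ± 0.933 TPM) and endothelium (2 of 6, Esam highest at 1.95 ± 0.865 TPM), whose summed level was 4.02 to 7.11 TPM. Among all protein-coding genes tested, 75.7% were above 1 TPM. Levels are those of the whole isolate, which may hold cells other than radial glia. In these bulk libraries, marker transcripts made by radial glia and by other cells cannot be told apart. Nor can fewer cells of a type and less RNA per cell.

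Most of the 43 genes were well expressed. By edgeR's quasi-likelihood test against a level of 1 TPM (two-sided, adjusted over 20991 genes), 41 were above it, 1, Cbx7, was below it, and Pcgf5 was not called. Among protein-coding genes 75.7% were above and 11.5% below 1 TPM, and among all tested genes 65.9% and 12.1%, so this count alone says little. A level in the middle of the transcriptome, the median protein-coding gene at 8.997 TPM, divided the 43 genes more. Above it were 33 and below it 8, while Cbx2 and Hdac5 were not called. The same test placed 47.1% of protein-coding genes above that level and 46.5% below it (36.8% and 55.9% of all tested genes). As log2(TPM + 1), the median of the 43 genes was 4.10 ± 0.12 (SD, n = 4), equal to 16.1 TPM, against 3.31 ± 0.024 for protein-coding genes and 2.53 ± 0.053 for all tested genes. Their levels spanned Rnf2 at 170 TPM to Cbx7 at 0.263 TPM, and together they held 1352 ± 63.2 TPM.

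**Figure D1:**
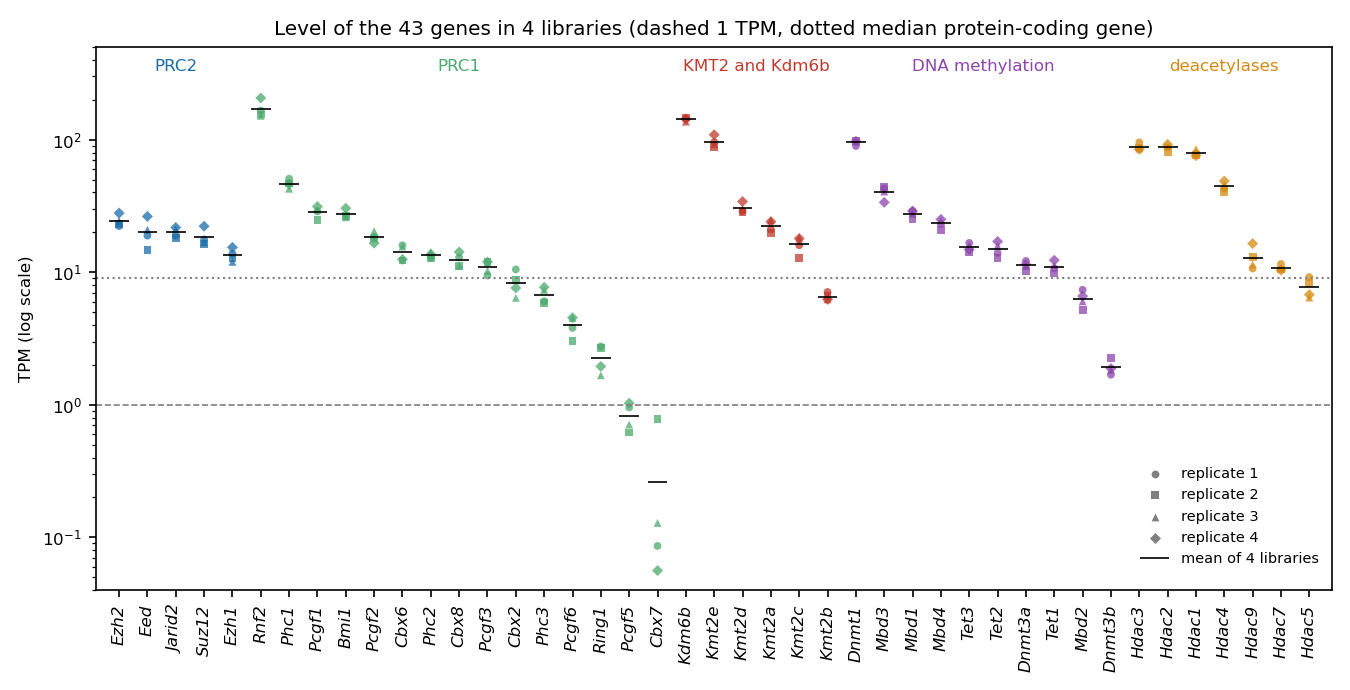
TPM of each of the 43 genes (log axis) in the 4 libraries, grouped by complex and sorted by mean within a group; symbols are libraries and bars are means. All but Pcgf5 and Cbx7 lie above the dashed line at 1 TPM, and Cbx7 in replicate 2 (0.781 TPM) stands apart from its other libraries.

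The 5 groups differed in the middle of their ranges. The deacetylases had the highest median, 5.50 ± 0.11 (log2(TPM + 1), SD, n = 4), or 44.3 TPM, followed by the KMT2 genes with Kdm6b at 4.75 ± 0.12 (26.0 TPM), PRC2 at 4.36 ± 0.18 (19.5 TPM), the DNA methylation genes at 4.01 ± 0.11 (15.1 TPM) and PRC1 at 3.71 ± 0.079 (12.1 TPM). Above the median protein-coding level were 6 of 7 deacetylases, 5 of 6 trithorax-side genes, 5 of 5 PRC2 genes, 8 of 10 DNA methylation genes and 9 of 15 PRC1 genes. Below it were 5 PRC1 genes (Phc3, Pcgf6, Ring1, Pcgf5 and Cbx7), 2 DNA methylation genes (Mbd2 and Dnmt3b) and Kmt2b. The order of the medians was not tested, and it depended on the genes included and on the length. Over the 40 genes with a gene-span value, which leave out Hdac1, Bmi1 and Dnmt3b, the deacetylase median was 4.65 ± 0.15 by merged exons, below that of the trithorax side, and 3.15 ± 0.071 by gene span, the lowest of the 5. By the mean of members the trithorax-side group (5.05 ± 0.081) and the deacetylases (5.03 ± 0.033) differed by less than their SDs.

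The 5 PRC2 genes lay close together, between 13.5 and 24.4 TPM. Ezh2 (ENSMUSG00000029687; GRCm38 chromosome 6, 47530139 to 47595341), the catalytic subunit associated with dividing cells, was at 22.3, 23.1, 24.4 and 27.9 TPM in replicates 1 to 4, from 1333 to 1735 counts. Ezh1, the paralogue that persists in postmitotic cells, was at 13.8, 12.7, 11.98 and 15.4 TPM. Every Ezh2 value was above every Ezh1 value. Ezh2 held 64.5% ± 2.15 (SD, n = 4) of their summed TPM, and the log2 ratio of Ezh2 to Ezh1 was 0.81 ± 0.13.

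That ratio is sensitive to the Ezh2 gene model, whose merged exons (6678 bases) are much longer than its longest transcript (2787 bases). With the longest transcript as length Ezh2 was at 44.3 TPM and held 71.1% of the 2, while on the gene-span scale of the deposited TPM it held 46.9%. Of the 43 genes, Ezh2 was the only one whose mean moved by over 1.5 times with the longest transcript.

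By merged exons the means of the other core subunits, Eed (20.2 TPM) and Suz12 (18.3 TPM), were below that of Ezh2 (24.4 TPM). With the longest transcript, Eed, Suz12 and Ezh2 were at 28.4, 15.6 and 44.3 TPM. On the gene-span scale they were at 10.4, 7.80 and 8.86 TPM, so their order depended on the length. Suz12, the scaffold of the complex, was at 17.7, 16.4, 16.8 and 22.2 TPM. Eed, which binds the methyl mark and stimulates the enzyme, was at 18.9, 14.8, 20.9 and 26.35 TPM. The ranges of Eed and Suz12 overlapped, and their log2 ratio of 0.12 ± 0.19 was within the spread between libraries. Eed had one of the wider spreads of the 43 genes, with a coefficient of variation (SD over mean) of 23.7%, against 3.75% expected from counting alone and a median of 11.7% over 2474 protein-coding genes of like count (within 1.5 times). Of its exonic bases 6.82% lie opposite another gene. Jarid2, a subunit that helps to recruit PRC2 to its targets, was at 19.9 ± 1.75 TPM (SD, n = 4). All 7 PRC2 partners listed for context were above 1 TPM, 3 of them above and 4 below the median protein-coding level. Highest were the histone-binding subunits Rbbp4 (221 ± 15.01 TPM) and Rbbp7 (101 ± 4.58 TPM), which also belong to deacetylase complexes.

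PRC1 had the widest range of the 5 groups. Its catalytic core is a RING1-type ubiquitin ligase, encoded by Rnf2 or Ring1. Rnf2 (ENSMUSG00000026484; chromosome 1, 151458004 to 151500955) was the most abundant of all 43 genes, at 166, 155, 151 and 206 TPM, at percentile 93.9 of protein-coding genes. Ring1 (ENSMUSG00000024325; chromosome 17, 34020792 to 34024680) was at 2.76, 2.68, 1.67 and 1.95 TPM, from 52 to 98 counts. Rnf2 thus held 98.7% ± 0.38 of their summed TPM, with a log2 ratio of 5.71 ± 0.34, the widest of 26 pairs compared. Its share was 98.3% at lowest and 99.1% at highest over the libraries, and 89.5% with the gene span as length. The replicate 4 value of Rnf2 was the highest, and its coefficient of variation of 14.8% compared with a median of 6.25% over 902 genes of like count. Of its exonic bases, 3.83% lie opposite an exon of Trmt1l. Whether counting used strand is not given, so reads of the 2 genes may not have been told apart there.

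Since this pair differed most, the RefSeq promoter windows of its genes (GRCm38.p6, 250 bases before to 50 after the start, both on the minus strand) are shown, with CpG dinucleotides, written CG and read alike on both strands, in capitals. The Rnf2 window is chr1:151500942-151501241 and the Ring1 window chr17:34024631-34024930.
Rnf2: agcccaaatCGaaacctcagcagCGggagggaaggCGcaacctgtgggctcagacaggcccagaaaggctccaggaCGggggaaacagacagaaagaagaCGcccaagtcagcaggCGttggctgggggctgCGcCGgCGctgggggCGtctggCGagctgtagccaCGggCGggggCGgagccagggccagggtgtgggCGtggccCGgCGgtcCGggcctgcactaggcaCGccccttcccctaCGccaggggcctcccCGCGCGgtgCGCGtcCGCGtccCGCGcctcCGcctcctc
Ring1: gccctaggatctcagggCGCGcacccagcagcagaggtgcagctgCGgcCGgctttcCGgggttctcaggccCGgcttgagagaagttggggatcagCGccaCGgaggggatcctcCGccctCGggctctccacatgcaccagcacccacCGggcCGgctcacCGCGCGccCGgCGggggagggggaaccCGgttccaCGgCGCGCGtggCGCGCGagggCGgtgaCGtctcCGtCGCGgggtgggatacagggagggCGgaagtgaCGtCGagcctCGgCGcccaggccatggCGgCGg
The windows hold 30 and 37 CpGs, with 72.7% and 74.0% G and C, so both are CpG-rich although the transcript levels lay far apart. Windows were found for 34 of the 43 genes (47 windows, as some genes have several). Their median was 24 CpGs, against 7 over 32851 windows of 27025 genes, and 83.0% against 43.5% held at least 10. The 32851 windows were not limited to protein-coding or expressed genes, so the contrast cannot be read as particular to chromatin genes. Under 10 CpGs were found in both windows of Hdac9 (0 and 3), in the only window of Phc1 (9) and in some of the windows of Dnmt1 (2), Phc2 (2), Pcgf5 (5) and Hdac7 (5 and 6). These are counts of letters and not a measure of methylation.

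The PCGF subunits, which define the variants of PRC1, were spread over the range. Pcgf1, of the variant with the demethylase Kdm2b, was at 28.7, 24.6, 29.7 and 31.3 TPM. Bmi1, the PCGF subunit known for self-renewal of neural stem cells, was at 26.8, 26.6, 26.0 and 30.4 TPM. The 2 overlapped in range and held 31.7% ± 1.77 and 30.5% ± 1.53 of the PCGF sum, and without length correction Bmi1 was the higher. Pcgf2, the paralogue closest to Bmi1, was at 18.4 ± 1.59 TPM, below Bmi1 in all 4 libraries (log2 ratio of Bmi1 to Pcgf2 0.56 ± 0.21). Pcgf3 was at 10.9 ± 1.25 TPM and Pcgf6 at 3.97 ± 0.71 TPM. Pcgf5 was at 0.956, 0.619, 0.709 and 1.03 TPM, within the spread of 1 TPM (edgeR adjusted p = 0.184).

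The CBX subunits carry the chromodomain that binds the PRC2 mark. Cbx6 was at 15.98, 12.3, 15.6 and 12.5 TPM, and Cbx8 at 12.9, 11.1, 11.2 and 14.2 TPM. Of the exonic bases of Cbx6, 5.31% are shared with Npcd on the same strand. The 2 genes overlapped in level, with 40.2% ± 4.72 and 35.4% ± 4.01 of the sum over the CBX genes among the 43. Cbx2 was lower, at 10.5, 8.74, 6.41 and 7.61 TPM, and lay below Cbx8 in all 4 libraries (log2 ratio -0.53 ± 0.28). Its level did not differ from the median protein-coding level by edgeR (adjusted p = 0.404).

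Cbx7 (ENSMUSG00000053411; chromosome 15, 79915807 to 79971119) was the lowest of the 43 genes. It was at 0.0861, 0.781, 0.128 and 0.0561 TPM, from 5, 57, 8 and 3 counts. Replicate 2 thus held most of its reads, and its coefficient of variation was 132%, against 41.1% expected from counting and a median of 51.0% over 1019 genes of like count. The mean lay below 1 TPM by -1.93 on the log2 scale (edgeR adjusted p = 0.0261), and by -3.47 without replicate 2 (adjusted p = 0.00337). Leaving out replicate 1, 3 or 4 instead ended the call (edgeR adjusted p = 0.0744, 0.0741 and 0.0582). Apobec3, which shares 100 exonic bases (1.54%) with Cbx7 on the opposite strand, had 200, 282, 234 and 198 counts. Replicate 2 also held the most erythroid transcripts, 4202 TPM summed over 6 markers against 2377 to 2683 TPM in the other libraries, and their part in the Cbx7 value was not tested.

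Of the polyhomeotic genes, whose proteins polymerise PRC1, Phc1 was highest at 50.7, 46.7, 42.6 and 46.2 TPM. Phc2 was at 12.8, 12.9, 14.2 and 13.7 TPM and Phc3 at 6.04, 5.82, 7.35 and 7.71 TPM. The 3 ranges did not overlap, and Phc1 held 69.8% ± 2.91 of their sum. Phc2 exceeded Phc3 by 0.90 ± 0.12 (log2), but lay below it by -0.65 on the gene-span scale and by -0.30 without length correction. All 11 PRC1 partners of the context list were above 1 TPM, 9 above and 2 below the median protein-coding level. Highest were Yaf2 (63.6 ± 3.50 TPM), a subunit of variant PRC1, and L3mbtl2 (27.7 ± 1.27 TPM), of the Pcgf6 variant. Of 5 genes of the deubiquitinases that remove the PRC1 mark, all were above 1 TPM. Against the median protein-coding level 2 were above, 1 was below and 2 were not called. The 2 above were Bap1 at 95.1 ± 2.87 TPM and Usp16 at 19.0 ± 1.49 TPM.

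Textbook Polycomb targets were almost without transcripts. The 16 listed were Hox genes, Gata4, Gata6, Foxa2, Pax3, Pax7, Tbx5 and the cell cycle inhibitors Cdkn2a and Cdkn2b. Of these, 6 had no count in any library, which allows up to 0.201 TPM (3 counts in the shallowest library). Another 6 had under 10 counts. Such low counts were common, as only 27789 of the 45143 matched genes had any count and 20991 had at least 10. Of the 4 targets that could be tested, 3 were below 1 TPM. Cdkn2b was above it at 1.82 ± 1.05 TPM (edgeR adjusted p = 0.0389), with 15, 37, 40 and 8 counts. Cdkn2a, the cell cycle inhibitor locus known to be silenced by Bmi1, was at 0, 0, 0.444 and 0.104 TPM, from 0, 0, 5 and 1 counts. These libraries hold no Polycomb-deficient cells, so the levels say nothing on what keeps these genes low.

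On the trithorax side, Kdm6b and Kmt2e stood above the other genes. Kdm6b (ENSMUSG00000018476; chromosome 11, 69398508 to 69413675), a demethylase that removes the PRC2 mark, was at 143, 147, 137 and 143 TPM. Its coefficient of variation of 3.04% was the smallest of the 43 genes. It exceeded Ezh2 in all 4 libraries, with a log2 ratio of Ezh2 to Kdm6b of -2.50 ± 0.15. The other demethylase of that mark, Kdm6a, was at 10.3 ± 0.862 TPM. Of the exonic bases of Kdm6b, 4.11% lie opposite the antisense gene Kdm6bos.

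Kmt2e, a divergent member of the KMT2 family, was at 95.9, 87.9, 92.3 and 109 TPM. It held 56.0% ± 1.42 of the family sum, a share of transcripts and not of methyltransferase activity. Its value is uncertain in that 9.31% of its exonic bases lie opposite exons of Srpk2, which was itself at 38.6 to 44.7 TPM. On the gene-span scale its share was 36.8% and Kmt2d was the highest. Kmt2d and Kmt2c, which methylate histone H3 at enhancers, were at 30.3 ± 2.60 and 16.2 ± 2.49 TPM, with a log2 ratio of Kmt2c to Kmt2d of -0.87 ± 0.17. Kmt2a, the founding mammalian homologue of trithorax, was at 21.0, 19.8, 24.6 and 24.1 TPM, and its paralogue Kmt2b at 7.09, 6.60, 6.24 and 6.24 TPM. Kmt2a was higher in all 4 libraries, by 1.63 ± 0.21 (log2). All 14 partners of the context list were above 1 TPM, and 11 above and 2 below the median protein-coding level. Dpy30, a core subunit, was at 484 ± 21.7 TPM and Men1, menin, at 65.6 ± 6.70 TPM.

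**Figure D2:**
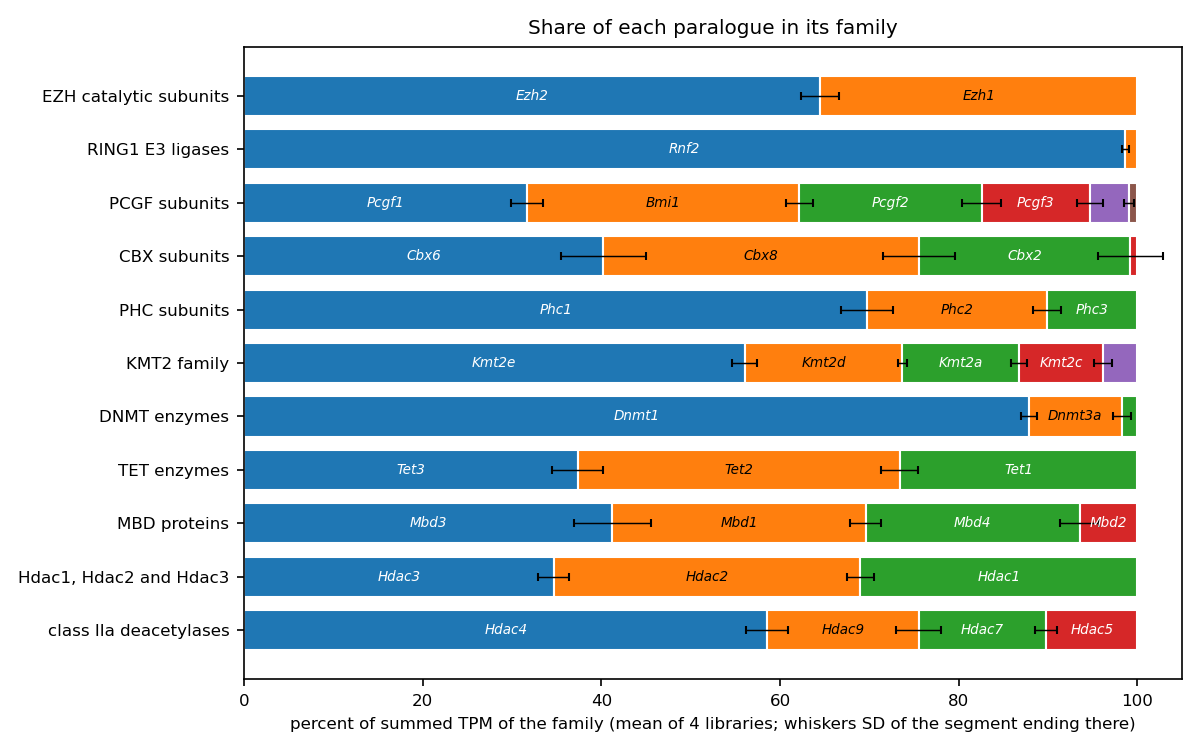
Share of each paralogue in the summed TPM of its family (horizontal axis, percent, mean of 4 libraries), for 11 families, counting only genes among the 43; whiskers are the SD of the segment that ends there. Rnf2 (98.7%) and Dnmt1 (87.8%) hold nearly all of their families, while Hdac1, Hdac2 and Hdac3 hold 31.0% to 34.6% each.

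Among the DNA methyltransferases the maintenance enzyme dominated. Dnmt1 (ENSMUSG00000004099; chromosome 9, 20907209 to 20959888), which copies methylation onto newly replicated DNA, was at 89.5, 97.3, 97.1 and 97.2 TPM. Replicate 1 was the low library, by little, and the coefficient of variation was 4.05%. Dnmt3a, a de novo methyltransferase prominent in the developing brain, was at 12.2, 10.3, 11.1 and 11.4 TPM, and its processed pseudogene Dnmt3a-ps1 had 0, 0, 10 and 0 counts. Dnmt3b, the de novo enzyme of the early embryo, was at 1.69, 2.26, 1.83 and 1.88 TPM, from 77 to 130 counts. The 3 did not overlap, and held 87.8% ± 0.87, 10.4% ± 1.01 and 1.76% ± 0.20 of their sum. Dnmt3b was above 1 TPM (log2 0.94, edgeR adjusted p = 0.000174) and below the median protein-coding level (log2 -2.23, adjusted p = 2.27e-06). Dnmt3l, a cofactor of the de novo enzymes in germ cells, had no count, which by the same limit allows up to 0.122 TPM. Uhrf1, the partner that brings Dnmt1 to replicated DNA, was at 42.0 ± 3.55 TPM. The isolate also held proliferation transcripts, with 8 of 8 markers above 1 TPM (against 75.7% of protein-coding genes) and a summed level of 768 to 898 TPM. Against the median protein-coding level, 7 of the 8 were above and 1 was not called. The part of proliferating cells in the levels of Dnmt1 and Uhrf1 was not tested.

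The 3 TET enzymes, which oxidise methylcytosine, lay close together. Tet3 was at 16.6, 14.1, 15.9 and 14.8 TPM, Tet2 at 13.96, 12.8, 15.9 and 17.1 TPM and Tet1 at 10.7, 9.77, 11.2 and 12.3 TPM. Tet2 and Tet3 overlapped and differed by less than their spread (log2 ratio -0.046 ± 0.18; exact sign-flip permutation p = 0.625). Tet1 was below Tet2 and Tet3 in all 4 libraries, by -0.40 ± 0.053 and -0.45 ± 0.15. Tdg, the glycosylase that completes demethylation, was at 15.1 ± 0.784 TPM.

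Of the MBD genes, Mbd3, a subunit of the NuRD deacetylase complex, was highest at 42.9, 43.9, 40.6 and 33.7 TPM. Mbd1, a transcriptional repressor, was at 27.7 ± 1.78 TPM and Mbd4, a repair glycosylase, at 23.4 ± 1.92 TPM, with Mbd1 higher in all 4 libraries by 0.24 ± 0.068 (log2). Mbd2, which replaces Mbd3 in a share of NuRD complexes, was at 7.37, 5.22, 6.02 and 6.61 TPM, and its log2 ratio to Mbd3 was -2.50 ± 0.28. Without length correction, and on the gene-span scale, Mbd1 and not Mbd3 held the largest share. Of the 8 partners of DNA methylation listed for context, 7 could be tested and all 7 were above 1 TPM, 4 above and 3 below the median protein-coding level.

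Among the deacetylases, Hdac1, Hdac2 and Hdac3 of class I were abundant and close in level. Hdac3, the enzyme of the NCoR and SMRT corepressors, was at 95.4, 87.3, 85.6 and 84.6 TPM. Hdac2 was at 87.5, 80.9, 89.3 and 92.1 TPM and Hdac1 at 78.5, 76.7, 85.1 and 75.7 TPM. These 2 share the Sin3, NuRD and CoREST complexes. The 3 ranges overlapped, and each held between 31.0% and 34.6% of their sum of 255 ± 7.61 TPM. The class I enzyme Hdac8, which is not among the 43 genes and was named after its value was seen, was lower at 16.3 ± 0.972 TPM. With it the class I sum was 271 ± 6.74 TPM, of which Hdac8 held 6.01% ± 0.497 and the other genes 29.2% to 32.6% each. Hdac2 and Hdac3 exceeded Hdac1 in all 4 libraries, by 0.14 ± 0.098 and 0.16 ± 0.11 (log2), but lay below it, by -0.15 and -0.42, with the longest transcript as length, so their order is not settled.

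Class IIa enzymes, which shuttle between nucleus and cytoplasm in response to signals, were lower and uneven. Hdac4 was at 42.7, 40.5, 45.8 and 48.7 TPM and held 58.6% ± 2.35 of the class. Of its exonic bases 22.4% lie opposite the antisense gene Gm26720, which had no count in any library. Hdac9 was at 10.7, 13.0, 11.5 and 16.4 TPM, and its coefficient of variation of 19.9% compared with a median of 8.57% over 2328 genes of like count. Its span of 869516 bases put it at 0.764 TPM in the deposited TPM table, and on that scale it was called below 1 TPM (log2 -0.38, edgeR adjusted p = 0.00178). Hdac7 was at 10.8 ± 0.537 TPM and overlapped Hdac9 (log2 ratio -0.22 ± 0.31). Hdac5 was at 9.19, 8.35, 6.44 and 6.77 TPM, near the median protein-coding level (edgeR adjusted p = 0.0605), and below Hdac4 by -2.40 ± 0.31 (log2). All 17 genes of the deacetylase complexes listed for context were above 1 TPM, 16 above and 1 below the median protein-coding level, with Mta2 at 71.9 ± 9.80 TPM and the remodeller Chd4 at 62.2 ± 6.39 TPM, both of NuRD. Also outside the 43 genes, Hdac6 and Hdac10 were at 39.4 ± 4.05 and 39.1 ± 2.85 TPM.

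In all, 26 pairs of genes were compared within libraries. In 23 the sign of the log2 ratio was that of the mean in all 4 libraries, where the sign-flip permutation test (exact, two-sided) gave p = 0.13, the smallest that 4 libraries allow, and 0.141 after Benjamini-Hochberg adjustment over the pairs. No pair could therefore pass 0.05, and the sizes and spreads given carry the comparison. The exceptions were Eed with Suz12, Tet2 with Tet3 and Hdac7 with Hdac9, whose differences were below their SD. In 5 pairs, these 3 and Hdac1 with Hdac2 and with Hdac3, the ranges over libraries overlapped.

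**Figure D3:**
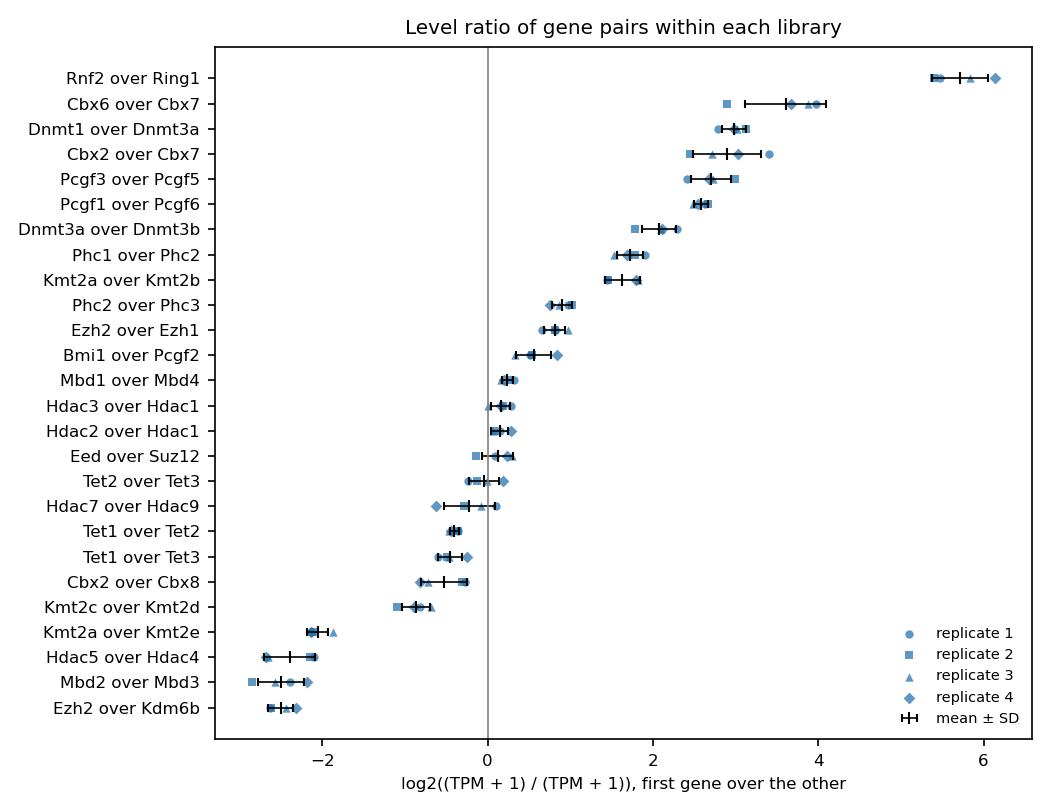
Log2 ratio of the levels of 26 gene pairs (horizontal axis, on TPM + 1), with a symbol for each library and the mean ± SD. Rnf2 over Ring1 lies farthest from 0 (5.71), and Eed over Suz12, Tet2 over Tet3 and Hdac7 over Hdac9 straddle it.

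The 43 genes did not deviate evenly over the libraries. Replicate 2 was the lowest library for 22 of them and replicate 4 the highest for 21, against 28.2% of protein-coding genes lowest in replicate 2 and 32.3% highest in replicate 4. With library sizes rescaled by TMM, a setting added after seeing the data, these counts were 20 and 22. The shares of protein-coding genes were then 24.4% and 33.3%. The median deviation of a gene from its own mean was -0.11 (log2) in replicate 2 and 0.10 in replicate 4, against -0.020 and 0.0077 over protein-coding genes. All 5 PRC2 genes were highest in replicate 4, as were 8 of 15 PRC1 genes. Of the other groups, 2 of 6 trithorax-side genes, 3 of 10 DNA methylation genes and 3 of 7 deacetylases were. Lowest in replicate 2 were 7 of 10 DNA methylation genes, 4 of 6 trithorax-side genes and 3 of 5 PRC2 genes. So were 6 of 15 PRC1 genes and 2 of 7 deacetylases, and the pattern was thus uneven over the groups.

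Summed marker levels also differed between these libraries. The proliferation markers had their highest summed level in replicate 4 (898 TPM, against 768 to 825 TPM), and the 7 microglial markers their lowest (17.0 TPM, against 29.9 to 40.7 TPM). Also lowest in replicate 4 were the sums of the intermediate progenitor markers (1246 TPM) and the endothelial markers (4.02 TPM). The erythroid sum was highest in replicate 2, as given above. So was the meningeal sum (8.38 TPM), while that of the oligodendrocyte lineage was lowest there (43.6 TPM). The radial glial and neuronal sums were at neither extreme in replicate 2 or 4. The part of these cell types in the deviations was not tested. The deviations were small next to the whole range of levels over the 43 genes, 0.263 to 170 TPM. They were not small next to the differences between genes of like level, such as Eed and Suz12. The median coefficient of variation of the 43 genes was 10.2%, against 14.6% over protein-coding genes, and 20 of the 43 were more variable than the median gene of like count.

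**Figure D4:**
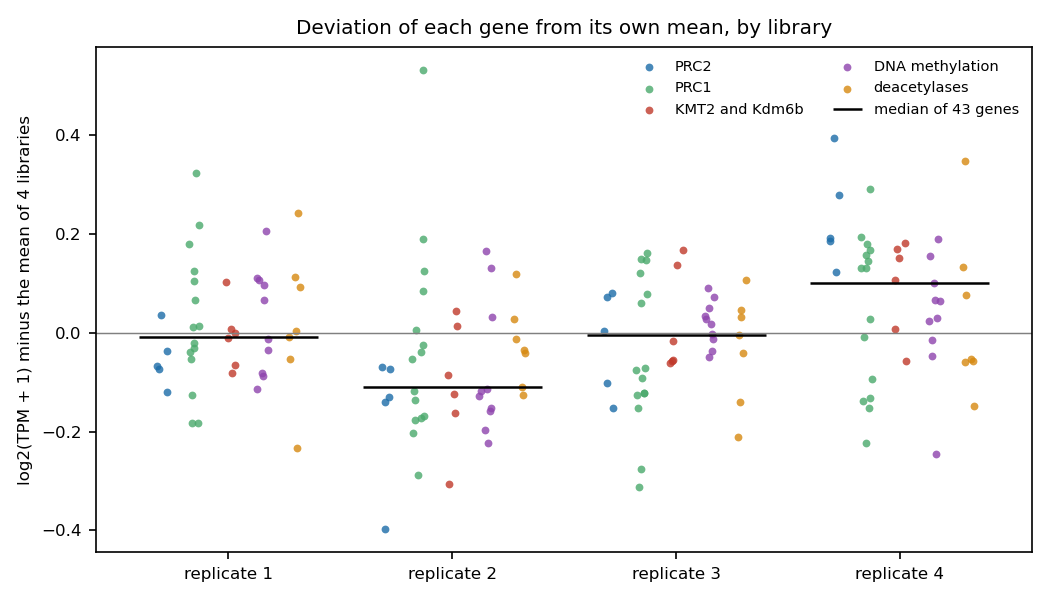
Difference of log2(TPM + 1) from the mean of the 4 libraries (vertical axis) for each of the 43 genes, by library and coloured by group; black bars are medians. The median lies at -0.11 in replicate 2 and 0.10 in replicate 4, and the highest point in replicate 2 is Cbx7.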

How the data were processed

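RNA was measured in 4 libraries of 1 group. Per the labels' protocols, cDNA was primed with tailed poly-dT, made by template switching, amplified and sheared. The submitters' processing notes name bcl2fastq 2.19.1, STAR 2.5.2b and GRCm38. Not given in the sources used here are the program that counted the reads, its annotation and whether it used strand. Whole reads per gene, not normalised, make up the count table deposited by the authors. The TPM table deposited by the authors divides by the whole gene span (95.3% of 9848 genes within 0.01 on the log2 scale) and holds 40 of the 43 genes, so TPM was recomputed from the counts with merged exons of GENCODE M21 (45143 of 45706 genes matched; 0.120% to 0.125% of counts unmatched). How reads spread along a transcript cannot be seen from gene counts.

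Genes with at least 10 counts were tested against 1 TPM and against the median protein-coding level with an intercept-only quasi-likelihood F test built on edgeR 4.0.16 (R 4.3.3; Benjamini-Hochberg, threshold 0.05), the expected count as offset. All 43 genes passed that filter. On simulated data of level against 1 TPM, run over 20991 genes, the test called above it 37 of 39 tested genes set to 2 TPM and 1 of 38 set to 1 TPM, and called below it 16 of 38 set to 0.5 TPM. Alternatives were TMM, DESeq2 1.42.0, limma 3.58.1, other lengths, filters and pseudocounts, and leaving out each library. Groups used the pseudocount 1. Counts differed beyond sampling noise in every pair of libraries (chi-square per degree of freedom 9.21 to 23.9). Family shares count only genes among the 43. All 43 genes are named, with the 2 highest genes of each context list, Kdm6a, Uhrf1 and Cdkn2a, and the highest gene of each marker list; some context genes are not reported here. Hopx, Hdac8 and overlapping genes were named after their values were seen. Members and lists were chosen with earlier results of these data known.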

Additional observations from a re-analysis of the deposited data

Results flagged for a closer look

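In 2 of the 43 genes a library lay far from the other 3 for the range of the gene, which chance alone gives in about 1 of 20 genes. Cbx7 was at 0.781 TPM in replicate 2 against 0.0561 to 0.128 TPM in the others. Dnmt1 was at 89.5 TPM in replicate 1 against 97.1 to 97.3 TPM, a small difference set apart by the closeness of the other 3 values.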

How the results depend on the processing

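No paired analysis was possible because all 4 libraries belong to 1 group. The number of the 43 genes above 1 TPM was 41 under every alternative that kept all 43. On the gene-span scale, which holds 40 of them, 37 were above and 3 below 1 TPM, against 38 and 1 for the same 40 by merged exons (a comparison added after seeing the data). The number below it was 0 to 1 when each library was left out. Over all genes, 4051 were below 1 TPM by limma, 6564 without the low-count filter and 1525 to 1707 with a library left out, against 2532. Below the median protein-coding level (5.41 TPM on the gene-span scale) were 6390 of 13822 genes on the gene-span scale, against 6243 of the same genes by merged exons and 11731 of 20991 in all, and 1498 of the 13822 were below 1 TPM by merged exons. Below the median level were also 5 of the 43 genes without the filter, against 8. Above it were 30 to 35 of the 43 genes over the alternatives, and by gene span 28 of 40, against 31 by merged exons.

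With the longest transcript the group medians (log2(TPM + 1)) were 3.52 for PRC1, 4.38 for the trithorax side, 4.33 for DNA methylation and 6.05 for deacetylases. With the gene span they were 3.27 for PRC2, 3.60 for PRC1, 4.93 for the trithorax side, 3.57 for DNA methylation and 3.15 for deacetylases, where Bmi1, Dnmt3b and Hdac1 have no value. Without these genes the merged-exon medians were 3.64 for PRC1, 4.08 for DNA methylation and 4.65 for deacetylases. Without length correction (log2(CPM + 1)) they were 5.04, 4.43, 7.25, 5.84 and 6.45 in that order. The mean of members gave 3.55 for PRC1, 5.05 for the trithorax side and 5.03 for deacetylases, a pseudocount of 0.1 gave 3.61 for PRC1, and leaving out Kdm6b gave 4.54 for the trithorax side. For changes other than those of length, filter or genes and samples included the cause was not tested.

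On the gene-span scale, log2 levels changed sides for Hdac9 (-0.38 against 1 TPM) and, against the median protein-coding level, for Jarid2 (-0.60), Ring1 (0.30), Cbx2 (1.48), Phc2 (-0.67), Phc3 (0.14), Kmt2b (1.05), Kmt2c (-0.0755), Hdac5 (0.30), Hdac7 (-0.12) and Hdac9 (-2.81). Without the filter Cbx2 (0.34), Phc3 (0.035) and Hdac5 (0.23) did so, as the reference fell, and with the longest transcript Tet1 (-0.034). Log2 ratios that changed sign were Ezh2 to Ezh1 (-0.16), Phc2 to Phc3 (-0.65), Tet2 to Tet3 (0.19) and Hdac7 to Hdac9 (1.76) by gene span, Eed to Suz12 (-0.23) and Phc2 to Phc3 (-0.30) by CPM, and Tet2 to Tet3 (0.20), Hdac2 to Hdac1 (-0.15) and Hdac3 to Hdac1 (-0.42) by longest transcript. Tet2 to Tet3 ran from -0.12 to 0.019 with a library left out. The most abundant member kept its place in 4 of 8 families by gene span. Calls against the median level were lost for Pcgf3, Hdac7 and Tet1 when some libraries were left out, for Cbx8, Pcgf3, Phc3 and Mbd2 with the longest transcript, for Kmt2b and Mbd2 without the filter and for Tet1 by gene span. Calls below it were gained for Hdac5 by DESeq2 and without replicate 1 or 2, and for Cbx2 with the longest transcript, and Pcgf5 was called below 1 TPM by gene span. Depth limits Cbx7, Ring1, Dnmt3b and Pcgf5, the genes with the fewest counts.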
